A study of Mus musculus with 2 samples.

Results

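Ankrd1, Amotl2, Lats2, Axl, Nuak2, Tead1, Fjx1, Ptpn14 and Crim1 are genes of the YAP/TEAD transcriptional program outside the CCN family, and all 9 were read in mouse embryonic fibroblasts (MEFs) of 2 genotypes. The genes were fixed by name, and every probe set that the platform annotation pairs with 1 of them alone was taken. This gave 22 of the 34945 probe sets paired with 1 gene, and 9 of 18193 genes. Primary MEFs of the C57BL/6 strain came from BCL11B-/- and BCL11B+/+ embryos at embryonic day 12.5 and were used at passage 2. Both cultures had spent 12 h in adipocyte differentiation medium with 10 μM pioglitazone, 0.5 mM methylisobutylxanthine, 10 μg/ml insulin and dexamethasone at 1 μM, so neither is an untreated culture. The cultures are called KO (BCL11B-/-) and WT (BCL11B+/+) MEFs. RNA of each culture went onto a single array of the Affymetrix mouse genome design. The sources name neither the number of embryos behind a culture nor a sort of the cells. The arrays were done to find what BCL11B, a zinc finger transcription factor, controls early in adipogenesis.

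None of the 9 genes was 1.5-fold higher or lower in KO than in WT MEFs. Of all 12331 genes above the floor of expression of 5 log2 units, 1.61% were higher by that much in KO MEFs and 1.75% lower, so a list of 9 with none past the rule does not stand apart from the background. Ptpn14 came closest, at 1.43-fold higher, followed by Nuak2 at 1.33-fold, Ankrd1 at 1.25-fold and Crim1 at 1.21-fold higher. Amotl2, Lats2, Axl, Fjx1 and Tead1 lay within 1.2-fold. There were no replicates, so no test between the genotypes was possible, no error can be given for a culture, and sizes are described with 1.5-fold as the rule.

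YAP and TAZ are transcriptional co-activators that enter the nucleus when cells spread and carry tension, and there they switch on genes through the DNA-binding TEAD factors. The Hippo kinases LATS1 and LATS2 phosphorylate YAP and TAZ and keep them in the cytoplasm, and cyclic AMP, which methylisobutylxanthine raises, is known to stimulate LATS. In mesenchymal cells TAZ is known to restrain the adipogenic receptor PPARγ. Several of the 9 genes act back on the pathway, since the products of Lats2, Amotl2 and Ptpn14 restrain YAP, while Tead1 encodes a TEAD factor itself.

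TEAD factors bind the letters GGAATG, and the start regions of the genes are shown because they hold this motif. RefSeq windows of GRCm38.p6, from 250 bases before to 50 bases after a start site, were at hand for 6 of the 9 genes. GGAATG, or its reverse complement CATTCC, was present in at least 1 window of each of the 6 genes, against 16.6% of 27025 genes with a window. By windows it was in 6 of 7, the exception being an alternative Lats2 start, against 14.7% of 32851. A match is a description of letters and not evidence of binding. The genes were chosen as YAP/TEAD genes, so these shares are no independent support for that name. Ankrd1, Ptpn14 and Crim1 have several probe sets each, all higher in KO MEFs. Their windows are given whole, 5′ to 3′ in the direction of the gene, with the motif in capitals.
Ankrd1, chr19:36119795-36120094, minus strand: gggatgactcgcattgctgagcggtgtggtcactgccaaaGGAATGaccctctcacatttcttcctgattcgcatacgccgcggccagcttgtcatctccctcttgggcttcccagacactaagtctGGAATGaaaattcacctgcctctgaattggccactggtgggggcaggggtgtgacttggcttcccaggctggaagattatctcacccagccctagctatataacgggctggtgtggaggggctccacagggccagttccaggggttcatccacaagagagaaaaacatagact
Ptpn14, chr1:189728018-189728317, plus strand: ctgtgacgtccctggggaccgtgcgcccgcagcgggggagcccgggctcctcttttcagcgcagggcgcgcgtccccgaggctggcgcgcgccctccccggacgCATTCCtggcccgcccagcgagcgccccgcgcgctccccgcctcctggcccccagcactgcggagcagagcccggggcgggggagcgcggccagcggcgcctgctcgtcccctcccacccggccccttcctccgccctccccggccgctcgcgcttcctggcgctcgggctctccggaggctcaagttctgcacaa
Crim1, chr17:78199998-78200297, plus strand: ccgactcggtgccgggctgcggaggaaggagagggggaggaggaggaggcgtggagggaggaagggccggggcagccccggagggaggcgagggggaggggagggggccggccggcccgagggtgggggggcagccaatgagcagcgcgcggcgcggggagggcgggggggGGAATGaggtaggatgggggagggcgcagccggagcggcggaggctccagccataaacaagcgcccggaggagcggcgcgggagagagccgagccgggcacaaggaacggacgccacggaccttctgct

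In Ankrd1 the motif occurred in the forward direction at 210 and 123 bases upstream of the start, and 2 or more copies were found in 1.36% of all windows. In Ptpn14 it stood in reverse at 146 bases upstream, and in Crim1 forward at 79 bases upstream. The other genes with a window are given by the bases around the motif, since their differences were small.
Amotl2, chr9:102717721-102717762, plus strand: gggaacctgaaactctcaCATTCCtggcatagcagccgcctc
Lats2, chr14:57746096-57746137, minus strand: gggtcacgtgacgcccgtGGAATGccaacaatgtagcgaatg
Axl, chr7:25788943-25788983, minus strand: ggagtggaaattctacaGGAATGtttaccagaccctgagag

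The Amotl2 motif lay in reverse at 65 bases and the Axl motif forward at 233 bases upstream of the start. That of Lats2 lay forward at 5 bases inside the transcribed part. All distances given are to the start site of the window, which can lie inside the RefSeq span of the gene. The span of Amotl2 begins at 102717091, upstream of its motif at 102717739. That of Axl, on the minus strand, ends at 25788924, upstream of the start used here. With 1 letter more, GGAATGT or ACATTCC was found in Amotl2 and Axl, 2 of the 6 genes, against 4.47% of genes. These longer sites contain the shorter one and are no separate matches. The AP-1 motif TGANTCA (its own reverse complement) was in none of the 7 windows and in 7.81% of all windows. The CArG box of serum response factor, read on both strands, was in none of the 7 and in 1.63% of all.

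The targeted gene was checked first. Bcl11b was lower in KO MEFs on all 4 probe sets, by 2.26- to 2.97-fold, and the brightest probe set read 7.40 in KO and 8.77 in WT MEFs. Signal remained, and whether its probes lie in the deleted part is not given in the sources used here. By immunoblot the study found no detectable BCL11B protein in BCL11B-/- MEFs. The values were already normalized by the robust multi-array average (RMA) and are on the log2 scale, with a median of 5.28 on each array. For each gene the brightest probe set, by the mean of both arrays, was used. A mean of 5 log2 units or more was the floor, which 12331 genes passed, all 9 among them. As a technical yardstick, probe sets of 1 gene gave differences whose pooled SD was 0.145 log2 units, taken over 5543 genes, which holds no variation between cultures. The cultures differed in more than genotype, as Xist, the RNA of the inactive X chromosome, read 4.80 in KO and 10.80 in WT MEFs. Genotype and culture cannot be told apart with 1 array each.

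Among the genes that restrain YAP, Ptpn14 differed by more than the spread between probe sets of 1 gene. Lats2 and Amotl2 did not on their brightest probe sets. Ptpn14 encodes a non-receptor tyrosine phosphatase that binds YAP and holds it in the cytoplasm. Its brightest probe set read 8.87 in KO MEFs and 8.35 in WT MEFs on the log2 scale, a log2 difference of 0.52. A second probe set read 5.83 in KO and 5.47 in WT MEFs, and the last read 5.25 in KO and 4.98 in WT MEFs. All 3 were higher in KO MEFs, by 0.52, 0.36 and 0.27, and their mean was 0.38. Of the 12331 genes 2.26% had a higher difference than Ptpn14. Among 45037 probe sets it ranked 697th by log2 difference and 322nd by the weighted average difference, the ranking of the study, which multiplies a difference by the relative level.

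Lats2, the kinase that phosphorylates YAP and TAZ, was measured on 6 probe sets. The brightest read 8.92 in KO and 9.04 in WT MEFs, a difference of −0.12. The next read 7.88 in KO and 8.05 in WT MEFs, a difference of −0.18, and the next after it read 6.10 in KO and 6.30 in WT MEFs, a difference of −0.21. The 3 probe sets above the floor were thus lower in KO MEFs by similar amounts, all under 1.2-fold. The other 3 lay under a mean of 5 log2 units, where background makes up much of the signal, and scattered widely, with −0.53, −0.098 and 0.26.

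Amotl2, an angiomotin family protein that binds YAP, had a single probe set. It read 10.12 in KO and 10.02 in WT MEFs, a difference of 0.095 that is smaller than the spread between probe sets of 1 gene. This probe set carries the suffix _a, which marks probes shared by several transcripts of a gene. The suffixes _s and _x mark probes that may match transcripts of other genes too, and the brightest probe set of Lats2 carries _x.

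**Figure D1:**
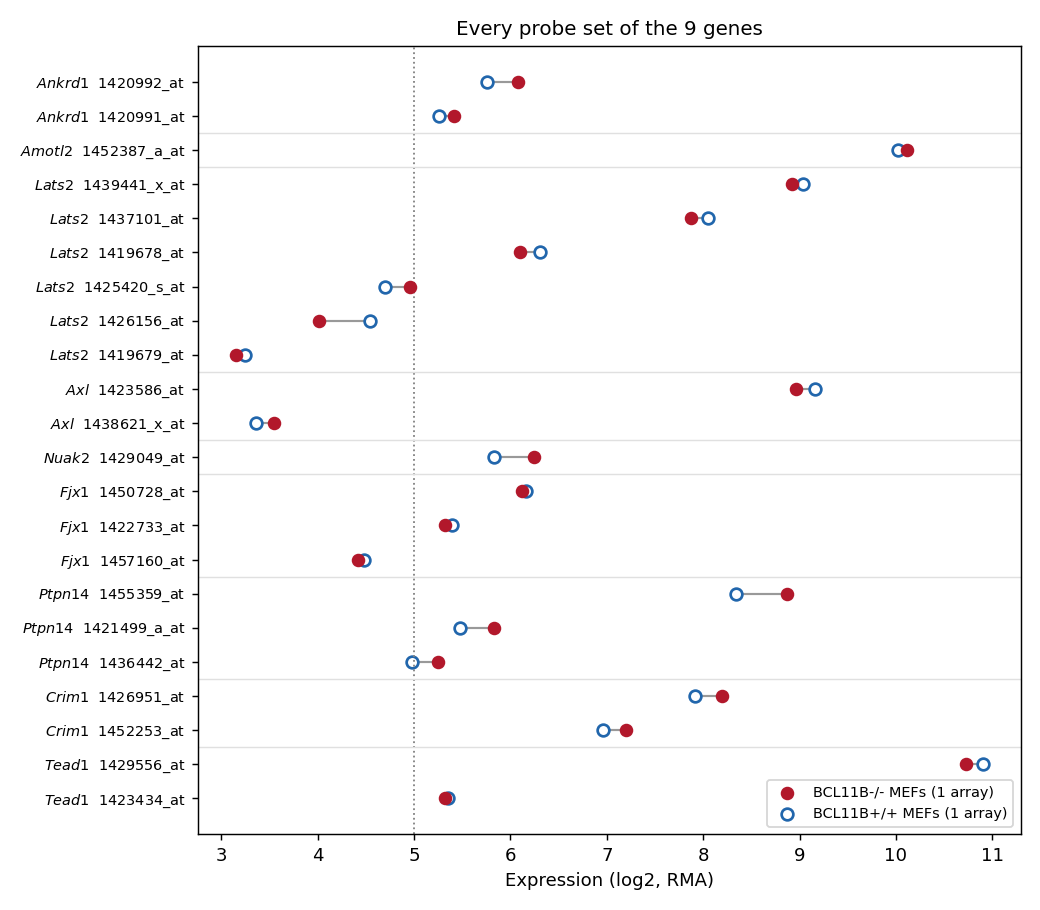
Expression (horizontal axis, log2 after RMA) on each of the 22 probe sets of the 9 genes (vertical axis) in KO MEFs (filled red circles) and WT MEFs (open blue circles), each from a single array without replicates; the dotted line is the floor of 5 log2 units. The filled circle lies to the right on every probe set of Ankrd1, Ptpn14 and Crim1 and the single one of Nuak2 and of Amotl2. It lies to the left on every probe set of Fjx1 and Tead1, while Lats2 and Axl have probe sets on both sides.

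Tead1, the TEAD factor among the 9, read 10.73 in KO and 10.91 in WT MEFs on its brightest probe set, a difference of −0.18. A second probe set, close to the floor, read 5.32 in KO and 5.35 in WT MEFs. Both were lower in KO MEFs, by 1.13- and 1.02-fold. Of all genes 14.5% had a lower difference than Tead1.

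Nuak2 and Axl, the kinase genes outside the Hippo cascade, lay on opposite sides of 0. Nuak2 encodes an AMPK-related kinase that LKB1 activates and that acts on actomyosin. Its only probe set read 6.25 in KO and 5.83 in WT MEFs, a difference of 0.42, and 3.71% of genes had a higher one. No second probe set could check this value. Axl encodes the receptor tyrosine kinase for GAS6. It read 8.96 in KO and 9.16 in WT MEFs, a difference of −0.20. A second probe set of Axl read 3.55 in KO and 3.36 in WT MEFs, far under the floor, and differed by 0.18. As the mean of both, the difference of Axl was −0.010.

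Ankrd1, a widely used reporter of YAP activity, encodes a nuclear and sarcomeric ankyrin repeat protein of striated muscle. Its probe sets were dim in these cells, with 6.08 in KO and 5.75 in WT MEFs on one and 5.42 in KO and 5.26 in WT MEFs on the other. Both were higher in KO MEFs, by 0.32 and 0.16. Of all genes 6.16% had a higher difference than Ankrd1.

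The products of Crim1 and Fjx1 act at or outside the cell membrane or in the secretory path. Crim1 encodes a transmembrane protein that binds bone morphogenetic proteins. It read 8.19 in KO and 7.92 in WT MEFs on one probe set and 7.20 in KO and 6.96 in WT MEFs on the other. The differences of 0.27 and 0.24 were close to each other, which is a statement about probe sets of the same arrays and not about cultures. Fjx1 is the mammalian homolog of four-jointed, a kinase that in Drosophila phosphorylates the cadherins Fat and Dachsous. It read 6.12 in KO and 6.16 in WT MEFs, a difference of −0.046, and its other probe sets differed by −0.070 and −0.059. All 3 were lower in KO MEFs by less than the pooled SD of probe sets.

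Across the 9 genes, 5 differences were above 0 and 4 below, from −0.20 for Axl to 0.52 for Ptpn14. Their median was 0.095, against 0 for all 12331 genes, whose 5th and 95th percentiles were −0.33 and 0.36. With a mean of at least 7 log2 units, which leaves out Ankrd1, Nuak2 and Fjx1, the median of the other 6 was −0.013. At the looser size of 1.2-fold, 4 of the 9 were higher (Ptpn14, Nuak2, Ankrd1 and Crim1), while 8.81% of all genes were. None was 1.2-fold lower, while 7.80% of all genes were. At 2-fold the background was 0.349% higher and 0.503% lower, and none of the 9 was past it. Ptpn14 and Nuak2 alone lay above the 95th percentile of all genes.

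**Figure D2:**
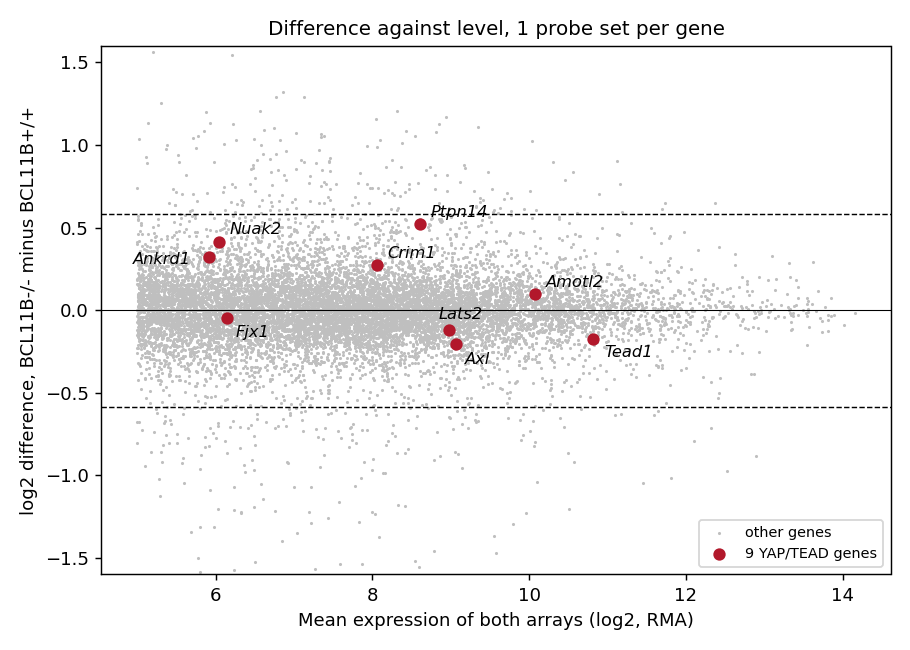
Log2 difference between KO and WT MEFs (vertical axis) against the mean expression of both arrays (horizontal axis, log2 after RMA) for 12331 genes in grey and the 9 genes in red, 1 probe set per gene; dashed lines mark 1.5-fold, and 18 genes past 1.6 log2 units are outside the axis. All 9 red points lie between the dashed lines, with Ptpn14 at 0.52 the closest to one.

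The differences of further YAP/TEAD targets were more widely spread. All 14 such genes were measured. In KO MEFs 1 of them was higher by 1.5-fold or more, 2 were lower by as much and the other 11 lay between, and the median was 0.044. Ccn2, a matricellular protein gene, read 11.49 in KO and 10.89 in WT MEFs, a difference of 0.60. Ccn1, another matricellular gene in use as a YAP reporter, was higher on all 4 probe sets, by 0.096 to 0.20. Igfbp3, which encodes a binding protein of insulin-like growth factors, read 11.30 in KO and 12.32 in WT MEFs, a difference of −1.02, and its other probe set differed by −1.24. Nt5e, the ectonucleotidase CD73, differed by −0.60 and, as the mean of its 3 probe sets, by −0.28, which is under the rule. Foxf2, a forkhead factor gene, differed by 0.36 on one probe set and −0.34 on the other. The ligand gene Tgfb2 and the RNA-binding protein gene Rbms3 were lower on all 4 of their probe sets each, with −0.55 and −0.39 on the brightest, both short of 1.5-fold.

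None of the genes that pass the Hippo signal on was past 1.5-fold. Of all genes 1.61% were higher and 1.75% lower by that much, so lists of this size with none do not stand apart. Among 5 measured core kinases and adaptors the median was 0.038. The differences ran from −0.19 for Stk4, which encodes MST1, to 0.045 for its adaptor Sav1. As the mean of its 3 probe sets Stk4 was at −0.077. The listed gene Stk3 had no probe set paired with it alone. Lats1, the relative of Lats2, read 9.25 in KO and 9.21 in WT MEFs, and its other probe set differed by 0.38. Mob1b, a LATS cofactor gene, differed by −0.087, and by 0.011 as the mean of its 2 probe sets. Among 11 measured upstream regulators the median was −0.025. The large cadherins at the cell surface lay at both ends of that list, with Fat4 at 0.38 on its brighter probe set and 0.40 on the other, and its binding partner Dchs1 at −0.37. Frmd6, a FERM domain protein gene, differed by −0.31 and Amot, which encodes angiomotin, by 0.10.

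Of 7 measured genes of YAP, TAZ and their DNA-binding and competing partners, 6 were below 0 and 1 was above. Of all genes 48.5% were below 0. The median of the 7 was −0.12. None was past 1.5-fold, beside 1.61% of all genes higher and 1.75% lower by that much. The differences of Yap1, Tead3 and Tead4 were smaller than the spread of 0.145 between probe sets of 1 gene. Yap1 read 10.37 in KO and 10.48 in WT MEFs, a difference of −0.10, and −0.038 as the mean of its 2 probe sets. Wwtr1, which encodes TAZ, read 10.52 in KO and 10.73 in WT MEFs, a difference of −0.20, and −0.37 as the mean of its 3 probe sets. The TEAD-binding cofactors Vgll3 and Vgll4 differed by −0.36 and −0.29, and Vgll3 was lower on all 3 of its probe sets. Of the other TEAD factors, Tead2 differed by 0.077, Tead3 by −0.12 and Tead4 by −0.031, so that Tead2 alone was above 0, although Tead4 was at 0.087 as the mean of its 2 probe sets. An mRNA level says nothing of where YAP and TAZ stand in the cell, which these arrays do not measure.

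Relatives and partners of the 9 genes were also within 1.5-fold in all 9 cases on their brightest probe sets, with a median of 0.047. This does not stand apart from the shares over all genes, 1.61% higher and 1.75% lower. Nuak1, the paralog of Nuak2, read 7.96 in KO and 7.58 in WT MEFs, a difference of 0.39 beside 0.42 for Nuak2. Gas6, the ligand of AXL, read 11.47 in KO and 11.81 in WT MEFs, a difference of −0.34, and Mertk, a receptor of the same family, differed by −0.12. Ankrd2, a relative of Ankrd1 in muscle, differed by 0.097. Ptpn21, the closest relative of Ptpn14, differed by 0.061 on its brightest probe set and by 0.61 on the farthest of its 3 probe sets.

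**Figure D3:**
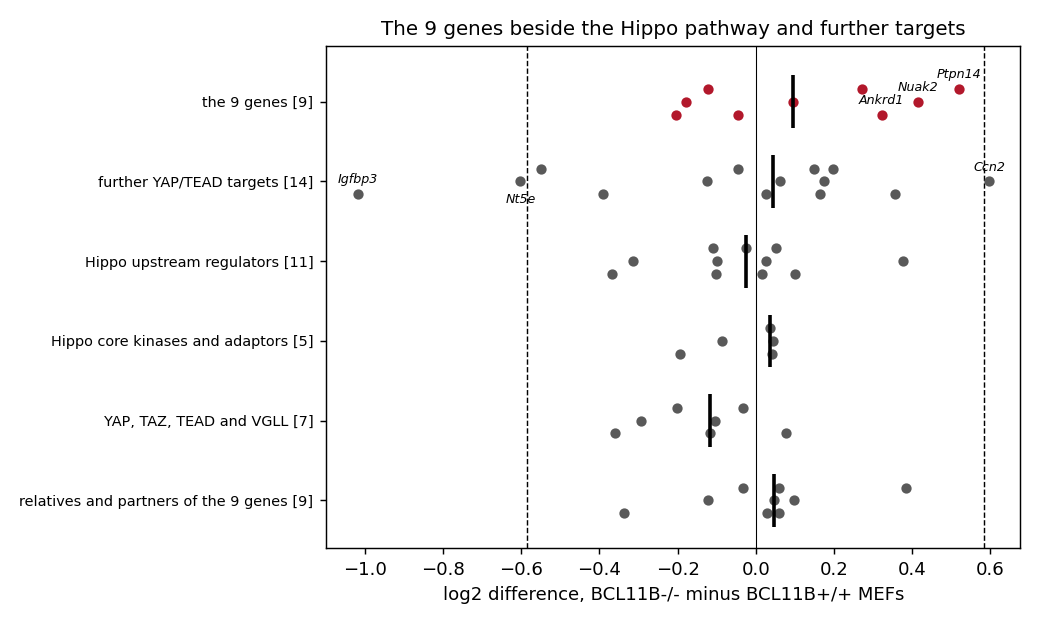
KO minus WT difference in log2 expression (horizontal axis) for the 9 genes (red) and for 5 lists of related genes (grey), one list per line with its number of measured genes in brackets and 1 array per genotype; black bars are medians and dashed lines mark 1.5-fold. The points past a dashed line are Ccn2 on the right and Igfbp3 and Nt5e on the left, all in the list of further targets.

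Markers of several other cell types differed between the arrays past 1.5-fold. Axl is also expressed by macrophages, and all 11 macrophage markers were below 0, 9 of them at least 1.5-fold lower in KO MEFs, with a median of −0.84, although Laptm5 and Ptprc, 2 of the 9, turned to 0.040 and 0.10 without suffixed probe sets. Their summed linear signal was 2485 in KO and 4456 in WT MEFs, and Ptprc alone, at 4.998 in KO MEFs, read under the floor. The part of macrophage RNA in the value of Axl was not tested. In a bulk sample fewer cells of a type and less RNA per cell cannot be told apart.

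Ankrd1 is best known from striated muscle. Of 8 skeletal and cardiac muscle markers 6 had a mean under the floor. The 2 measured, Actc1 and Tnnt2, differed by −0.81 and −0.77, with Tnnt2 at 0.10 without suffixed probe sets. Of the 6 under the floor, Myh3, Myl1, Myod1 and Myog differed by 0.45, 0.28, 0.076 and 0.042, Ttn by 0 and Actn2 by −0.10. With no filter the median of the list was 0.021. The summed linear signal of all 8 was 419 in KO and 618 in WT MEFs. Of 10 measured smooth muscle markers 6 were at least 1.5-fold higher in KO MEFs and none was lower, with a median of 0.62 and Myl9, a myosin light chain gene, highest at 1.08, although Acta2 and Tpm2, 2 of the 6, turned to −0.072 and −0.53 without suffixed probe sets. Their summed linear signal was 12466 in KO and 7746 in WT MEFs, with Synpo2 under the floor. Whether these markers and the values of Ptpn14, Nuak2, Ankrd1 and Crim1 move together was not tested and cannot be with 1 array per genotype.

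All 8 fibroblast markers passed the floor, with Col1a2 at 13.97 in KO and 14.06 in WT MEFs. The macrophage, adipocyte and mesothelial markers on the array did so too, so passing it does not identify the cells. Of the 8 fibroblast markers 2 were at least 1.5-fold lower in KO MEFs, with Dcn, the proteoglycan decorin, lowest at −0.88. Of 6 measured chondrocyte markers 5 were higher, led by Comp with 1.63, while 3 were with the mean over all probe sets and 1 with a floor of 7. Adipocyte markers lay on both sides of 0, with a median of −0.53. Of the 5 measured 2 were at least 1.5-fold lower, the lipase gene Lpl with −0.97 and Pparg with −0.71. The count was 1 without suffixed probe sets or with a floor of 7, where the median was −0.27 and −0.33. Cebpa differed by −0.53, short of 1.5-fold. The adipokine gene Adipoq and the fatty acid binding protein gene Fabp4 differed by 0.56 and 0.31, short of 1.5-fold, and Fabp4 by 0.063 as the mean of its 4 probe sets. All 4 mesothelial markers were below 0, with a median of −0.43, and 1 was at least 1.5-fold lower (Lrrn4, −0.62). No measured endothelial or epithelial marker (2 and 4 genes) was past 1.5-fold, with medians of 0.086 and −0.082.

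**Figure D4:**
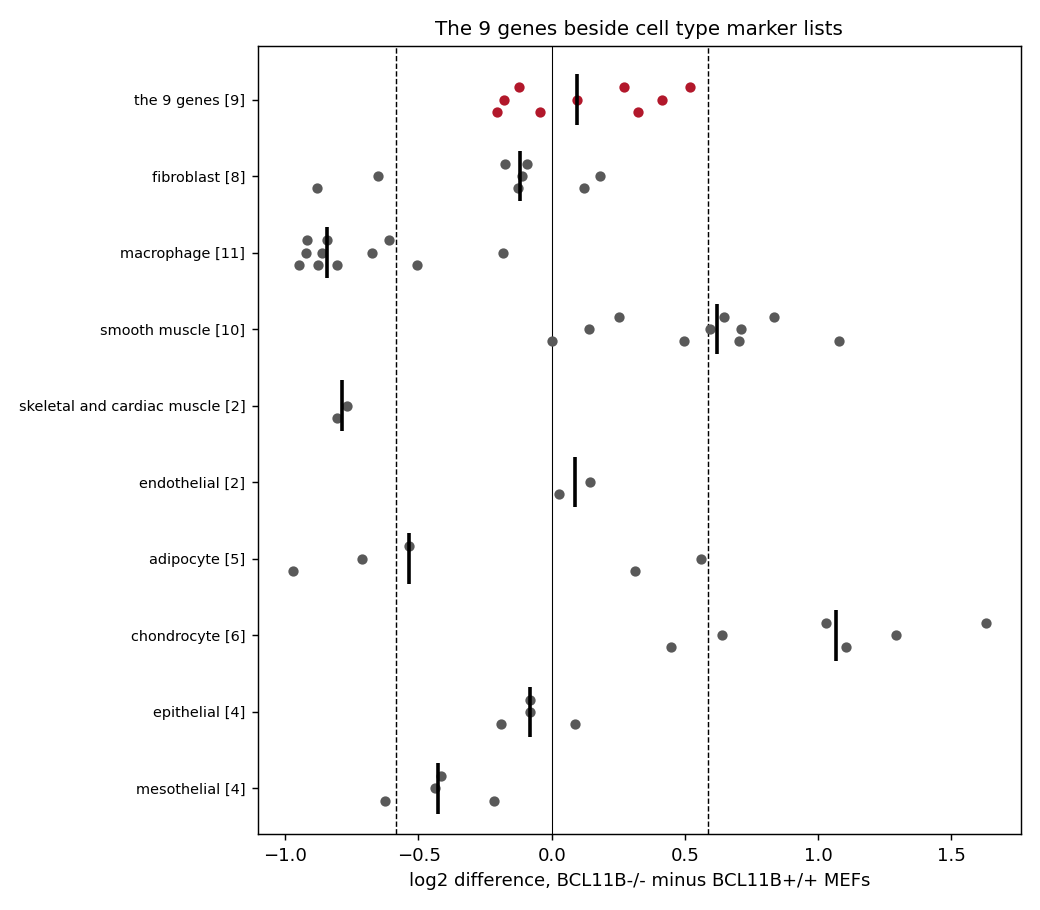
KO minus WT difference in log2 expression (horizontal axis) for the 9 genes (red) and for the measured genes of 9 cell type marker lists (grey), one list per line with its number of measured genes in brackets and 1 array per genotype; black bars are medians and dashed lines mark 1.5-fold. The 9 genes lie between the dashed lines, while the medians of the macrophage list (−0.84), the skeletal and cardiac muscle list (−0.79, 2 genes), the smooth muscle list (0.62) and the chondrocyte list (1.07) lie outside them.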

How the data were processed

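RNA of BCL11B-/- and BCL11B+/+ MEFs was hybridized to 1 array each. The authors extracted total RNA, amplified and biotinylated it, reduced the scans with AGCC software and made the deposited log2 values by robust multi-array averaging under Bioconductor (R 3.0.3 in the submitters' processing notes). This corrects background, makes the distributions of the arrays alike and summarises probes, so a change of total mRNA would not be seen. No genome build applies to the values.

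The table held 45101 probe sets, 64 of them controls, which were left out. The platform annotation paired 34945 others with 1 gene, and 932 probe sets with several genes were not named. All 126 listed symbols were found in RefSeq (GRCm38.p6). The brightest probe set by the mean of both arrays stood for a gene, counts cover genes whose mean reached 5, and 1.5-fold was the size rule. No p-value was computed with 1 array per genotype, and the number of arrays limits the precision. The rule for counting was run on simulated data with planted differences and noise of the pooled SD of probe sets. This checks the counting alone, since that noise holds no variation between cultures. The members and lists were chosen with earlier results of these data known. Named were the 9 genes, and of related lists every gene past 1.5-fold and the 2 highest and 2 lowest, and of cell type lists the most extreme past 1.5-fold. Ccn1, Tgfb2, Rbms3, Acta2, Tpm2, Yap1, Wwtr1, Tead3, Ptpn21, Myod1, Myog, Adipoq, Fabp4, Ptprc, Synpo2, Col1a2 and Xist were named outside this rule, after their values were seen. So were Myh3, Myl1, Ttn, Actn2, Pparg and Cebpa. Alternatives were other choices of probe set, a loess fit (span 0.4) or the median difference subtracted, other filters and other size rules. Promoter windows are from RefSeq. Tools were statsmodels 0.14.6, pandas 2.3.3, numpy 2.4.6 and matplotlib 3.10.9 under Python 3.11.15.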

Additional observations from a re-analysis of the deposited data

How the results depend on the processing

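No paired analysis was possible because each genotype has 1 array. The count of the 9 genes past 1.5-fold stayed at 0 in both directions when all probe sets were averaged or suffixed ones were dropped. It also stayed at 0 after the loess fit, while 4 were higher at 1.2-fold. Subtracting the median difference, dropping the filter, a floor of 7 and the 2-fold rule gave 0 too, but could not have given more. The median difference was 0, all 9 genes already passed the floor, and a higher floor or size rule can only lower a count. No gene of the 9 changed sign under a choice of probe set or scaling, although Amotl2 has no probe set without a suffix, and Axl moved to −0.010 with the mean over all probe sets. The median of the 9 ranged from −0.013 (floor of 7) to 0.11 (without suffixed probe sets). Over all genes the floor of 7 left 112 higher and 124 lower ones, the 1.2-fold rule gave 1086 higher and 962 lower and the 2-fold rule 43 higher and 62 lower, as the construction of these rules requires. Without suffixed probe sets Ptprc turned to 0.10, Laptm5 to 0.040, Acta2 to −0.072, Tpm2 to −0.53 and Tnnt2 to 0.10, and with no filter the median of skeletal and cardiac muscle markers turned to 0.021, and the cause was not tested. The loess curve lay between −0.011 and 0.014, and the median difference over all genes was 0. By weighted average difference Ptpn14, Crim1 and Amotl2 moved up to ranks 322, 1577 and 5305, against 697, 3734 and 12945 by plain difference.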
